A study of Mus musculus with 9 samples.

Results

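A set of 9 genes of nucleic acid sensing and double-stranded RNA handling were followed in B16F10 cells, a mouse melanoma line. They were chosen by name, as the listed sensor genes Ifih1, Ddx58, Dhx58, Eif2ak2, Zbp1, Adar, Samhd1, Tlr3 and Mavs, and all 9 were found among the 55487 genes of the count table. All 9 also passed the filter on low counts, which kept 15237 genes. The groups were cells given interferon gamma (IFNγ) at 50 ng/mL with FK866 at 50 nM, cells given IFNγ at 50 ng/mL, and cells in Media with neither agent. Every group was harvested after 6 h and has 3 libraries, whose titles carry Control 3, Control 4 or Control 5 in all 3 groups. What that number stands for is not stated, and separate cultures are not named either, so p-values measure library spread that may be technical. The fit of group means leaves out the number, so its p-values also take in differences between the numbers. FK866 inhibits NAMPT, the enzyme that limits the salvage of NAD, and no group received FK866 alone. The treatment description speaks of mouse or human IFNγ and names a mouse product beside the dose. All values come from 1 cell line.

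RNA from viruses, or the cell's own RNA when it folds into long duplexes, is recognised by a small set of proteins. In the cytosol the helicases RIG-I (Ddx58) and MDA5 (Ifih1) bind RNA duplexes and signal through the mitochondrial adaptor MAVS to the kinases and transcription factors that switch on type I interferon, while their relative LGP2 (Dhx58) modulates both. TLR3 reads double-stranded RNA in endosomes, PKR (Eif2ak2) halts translation when it binds such RNA, ZBP1 recognises left-handed nucleic acids and can start necroptosis, ADAR1 (Adar) edits adenosine to inosine in RNA duplexes and so keeps self RNA from being sensed, and SAMHD1 breaks down deoxynucleotides. Many of these genes are known targets of interferon signalling, through promoter sequences called gamma-activated sites and interferon-stimulated response elements. In melanoma, loss of ADAR1 is known to raise sensitivity to interferon and to immunotherapy.

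The start regions of the members are shown as a description. Whether their motifs bear on the response to IFNγ was not tested. RefSeq promoter windows of GRCm38.p6, with 250 bases before and 50 bases after each start site, were matched for 7 of the 9 members in 9 windows, 3 of them for Adar, and Dhx58 and Zbp1 were not matched. Each window was searched on both strands for TTCNNNGAA, the core of a gamma-activated site, which is its own reverse complement, and for GAAA followed by any 2 bases and a second GAAA, the core of an interferon-stimulated response element. The gamma-activated core was found in 8.3% of all 32851 promoter windows and the response element core in 3.44%, and 0.454% held both. Counted per gene, the shares were 9.55% and 3.99% of 27025 genes. The gamma-activated core occurred 1 time each in windows of Eif2ak2, Adar and Samhd1. The response element core occurred 1 time each in windows of Ifih1, Ddx58 and Eif2ak2. No match overlapped one of the other motif. These are matches of letters and do not show binding. The 30 bases around each match, on the strand of the gene, have the match in capitals below, and positions count from the start site, with negative numbers before it. The Ifih1 match lies at 33 to 42 (window chr2:62646206-62646235, minus strand), and that of Ddx58, which reads as the reverse complement of the motif, at 3 to 12 (chr4:40239804-40239833, minus strand). Eif2ak2 has the gamma-activated core at -178 to -170 (chr17:78882731-78882760, minus strand) and the response element core at 19 to 28 (chr17:78882535-78882564, minus strand). The Adar match lies at 23 to 31 of a start site inside the gene (chr3:89730730-89730759, plus strand), and that of Samhd1 at -235 to -227 (chr2:157135312-157135341, minus strand).
Ifih1: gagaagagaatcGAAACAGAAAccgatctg
Ddx58: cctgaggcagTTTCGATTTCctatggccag
Eif2ak2 before its start: ctgcagagctTTCCCAGAAtggaagccagg
Eif2ak2 after its start: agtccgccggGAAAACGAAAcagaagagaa
Adar: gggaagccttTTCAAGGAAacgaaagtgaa
Samhd1: acaccaccctTTCGGAGAAacacaagggcg

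The windows of Tlr3 and Mavs held neither core, and of these genes Tlr3 was called higher than Media and Mavs was not. The whole 250 bases before the start are given for Eif2ak2, the member whose window holds both cores (chr17:78882573-78882822, minus strand, gamma-activated core in capitals). They are also given for Mavs, the only member called against Media neither without nor with the library number as a block (chr2:131233813-131234062, plus strand).
Eif2ak2: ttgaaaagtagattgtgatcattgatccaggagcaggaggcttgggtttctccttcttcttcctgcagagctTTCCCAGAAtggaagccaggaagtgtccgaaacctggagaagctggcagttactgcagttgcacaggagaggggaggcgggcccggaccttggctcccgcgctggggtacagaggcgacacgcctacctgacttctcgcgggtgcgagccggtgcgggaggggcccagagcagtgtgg
Mavs: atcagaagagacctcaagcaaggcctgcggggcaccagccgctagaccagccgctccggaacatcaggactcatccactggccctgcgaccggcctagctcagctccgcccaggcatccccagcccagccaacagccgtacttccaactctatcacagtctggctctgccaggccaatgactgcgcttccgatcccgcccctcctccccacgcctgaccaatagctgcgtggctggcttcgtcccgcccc

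Libraries held 15317003 to 18466972 counts. Irf1, which encodes an interferon-induced transcription factor, averaged 747 ± 42.4 CPM with IFNγ plus FK866, 787 ± 34.2 CPM with IFNγ and 17.3 ± 3.31 CPM in Media (SD, n = 3 each), where CPM is the count scaled to library size with TMM factors. All 7 listed melanocytic markers were detected, with sums of 14982 to 17078 CPM with IFNγ plus FK866, 15538 to 17187 CPM with IFNγ and 16881 to 19023 CPM in Media. Of 9 leukocyte markers, 7 (among them Ptprc, Adgre1, Csf1r, Itgam, Itgax and Ncr1) were at 0 in all libraries, and the list summed to at most 11.3 CPM. Fibroblast markers summed to 8.32 to 13.4 CPM with IFNγ plus FK866, 8.56 to 11.8 CPM with IFNγ and 13.4 to 18.7 CPM in Media, with Thy1 at 0. Endothelial markers summed to at most 0.975 CPM, with Cdh5 and Kdr at 0, and the 3 keratinocyte markers were at 0. The part of these differences in the results was not tested. In bulk RNA, fewer expressing cells and less RNA per cell cannot be told apart.

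**Figure D1:**
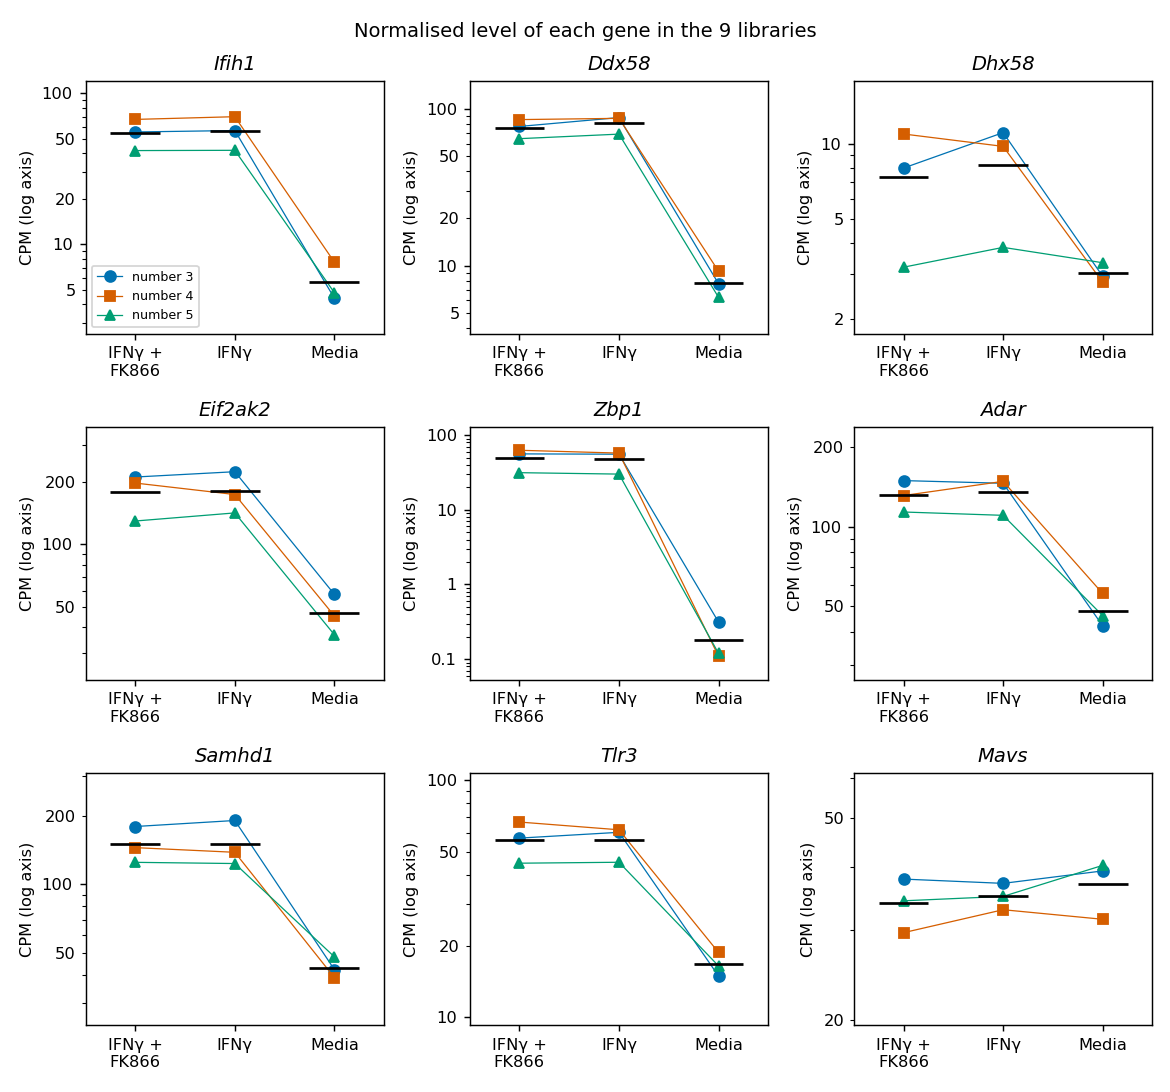
CPM (log axis) of each member gene in every library, with IFNγ + FK866 on the left, IFNγ in the middle and Media on the right; symbols and thin lines mark the libraries numbered 3, 4 and 5, and black bars the group means (n = 3). For 7 genes both IFNγ groups lie above Media without overlap, for Dhx58 the IFNγ + FK866 library of number 5 (3.21) falls among the Media libraries, and for Mavs the groups overlap.

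With IFNγ plus FK866 against Media, 7 of the 9 members passed the test in the direction of a rise and none fell, where 2.76% of all 15237 genes were called higher and 0.597% lower. With IFNγ against Media the same 7 genes were called, Ifih1, Ddx58, Eif2ak2, Zbp1, Adar, Samhd1 and Tlr3, where 2.8% of all genes were called higher and 0.499% lower. Calls were made at an adjusted p under 0.05 in edgeR's quasi-likelihood test. Both comparisons use the same Media libraries. All libraries of the group lay above all Media libraries for 7 members with IFNγ plus FK866 (7.98% of all genes, with 6.29% below) and for 8 with IFNγ (7.97% of all genes, with 5.85% below). No member lay below Media without overlap. The median log2 fold change over the 9 members was 1.80 with IFNγ plus FK866 and 1.81 with IFNγ, against -0.02 and -0.01 over all genes tested. With the library number as a block, Dhx58 was called as well in both comparisons, where 8.53% of all genes were called higher and 7.61% lower with IFNγ plus FK866, and 8.12% higher and 6.14% lower with IFNγ.

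Of the cytosolic helicases, Ifih1, which encodes MDA5 (ENSMUSG00000026896, chromosome 2, 62595798 to 62646255, GRCm38, minus strand), was at 55.4, 67.1 and 41.7 CPM with IFNγ plus FK866 in the libraries numbered 3, 4 and 5, at 56.6, 69.9 and 41.9 CPM with IFNγ, and at 4.39, 7.61 and 4.78 CPM in Media. The lowest stimulated library, number 5 of IFNγ plus FK866, stood well above the highest Media library. The log2 fold change over Media was 3.28 with IFNγ plus FK866 (SE 0.28, adjusted p = 9.64e-05) and 3.32 with IFNγ (SE 0.28, adjusted p = 9.06e-05), a 9.74-fold and a 9.99-fold rise. Its start region holds the response element core shown above, whose part in the rise was not tested.

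Ddx58, which encodes RIG-I (ENSMUSG00000040296, chromosome 4, 40203773 to 40239828, minus strand), was at 77.5, 85.8 and 64.8 CPM with IFNγ plus FK866, at 88.4, 87.3 and 69.2 CPM with IFNγ, and at 7.66, 9.20 and 6.27 CPM in Media. The stimulated groups again lay clear of Media, with the lowest values in number 5 in each group. Over Media the log2 fold change was 3.30 with IFNγ plus FK866 (SE 0.18, adjusted p = 4.56e-06) and 3.40 with IFNγ (SE 0.18, adjusted p = 3.81e-06). Within a number the ratio of IFNγ to Media was 11.5, 9.49 and 11.0, so the response was of similar size in all 3 numbers.

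Dhx58, which encodes LGP2 (ENSMUSG00000017830, chromosome 11, 100694884 to 100704271, minus strand), was at 7.99, 10.9 and 3.21 CPM with IFNγ plus FK866, at 11.1, 9.75 and 3.85 CPM with IFNγ, and at 2.95, 2.79 and 3.34 CPM in Media. In number 5 both stimulated libraries were close to their Media library, while in numbers 3 and 4 they stood above it. The log2 fold change over Media of 1.29 with IFNγ plus FK866 (SE 0.47, adjusted p = 0.299846) and of 1.44 with IFNγ (SE 0.48, adjusted p = 0.223) did not pass the test. With the number as a block both passed, at 1.17 (adjusted p = 0.00468) and 1.33 (adjusted p = 0.00152). Without the libraries of number 5, the number with the smallest ratio, they also passed without the block, at 1.73 (adjusted p = 0.0279) and 1.86 (adjusted p = 0.0225). Of the 12 settings that left out a library or a number, this was the only 1 in which Dhx58 was called against Media. DESeq2, without a block and with all libraries, called Dhx58 for IFNγ against Media (1.44, adjusted p = 0.0463).

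Mavs, the adaptor that both helicases signal through (ENSMUSG00000037523, chromosome 2, 131234063 to 131248025, plus strand), was at 37.9, 29.7 and 34.3 CPM with IFNγ plus FK866, at 37.1, 33.0 and 35.0 CPM with IFNγ, and at 39.3, 31.6 and 40.3 CPM in Media. The 3 groups overlapped. The log2 difference from Media was -0.13 with IFNγ plus FK866 (SE 0.13, adjusted p = 0.977) and -0.08 with IFNγ (SE 0.13, adjusted p = 0.9999). The 95% intervals with the block ran from -0.29 to 0.04 and from -0.24 to 0.09 on the log2 scale. These bounds are far below the log2 fold changes of the helicase genes Ifih1 and Ddx58.

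Tlr3, the endosomal receptor (ENSMUSG00000031639, chromosome 8, 45395665 to 45411080, minus strand), was at 57.1, 66.7 and 44.7 CPM with IFNγ plus FK866, at 60.4, 61.9 and 45.1 CPM with IFNγ, and at 14.9, 18.8 and 16.5 CPM in Media. All 6 stimulated libraries lay above the 3 Media libraries. Relative to Media, Tlr3 rose by 1.75 on the log2 scale with IFNγ plus FK866 (SE 0.18, adjusted p = 3.83e-04) and by 1.74 with IFNγ (SE 0.18, adjusted p = 4.19e-04). The other endosomal nucleic acid receptors listed, Tlr7, Tlr8 and Tlr9, had at most 2 counts in any group and were not tested.

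Eif2ak2, which encodes PKR (ENSMUSG00000024079, chromosome 17, 78852564 to 78882573, minus strand), was at 210.4, 197 and 129 CPM with IFNγ plus FK866, at 223, 173 and 142 CPM with IFNγ, and at 57.6, 45.4 and 36.9 CPM in Media. In each group number 3 was the highest and number 5 the lowest library. The log2 fold change over Media was 1.94 in both comparisons (SE 0.24 in each; adjusted p = 0.00133 with IFNγ plus FK866 and 0.0013 with IFNγ). Within a number the ratio of IFNγ to Media was 3.87, 3.82 and 3.84. Without the libraries of number 4 the log2 fold change was 1.85 with IFNγ plus FK866 (adjusted p = 0.152) and 1.94 with IFNγ (adjusted p = 0.137), no longer called.

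Zbp1, which encodes the sensor of left-handed nucleic acids (ENSMUSG00000027514, chromosome 2, 173206612 to 173218923, minus strand), was at 56.2, 62.9 and 31.5 CPM with IFNγ plus FK866, at 55.7, 57.6 and 30.1 CPM with IFNγ, and at 0.314, 0.110 and 0.119 CPM in Media. The Media values rest on 5, 2 and 2 counts, so that Zbp1 was close to undetected there and abundant in both IFNγ groups. Over the group the ratio to Media was 291 with IFNγ plus FK866 (2697 against 9 counts, 95% counting interval 153 to 638) and 269 with IFNγ (2301 against 9 counts, 141 to 588). The intervals cover counting error only. The fitted log2 fold change was 8.09 with IFNγ plus FK866 (SE 0.50, adjusted p = 1.00e-05) and 8.02 with IFNγ (SE 0.50, adjusted p = 1.08e-05).

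Adar, which encodes the editing enzyme ADAR1 (ENSMUSG00000027951, chromosome 3, 89715022 to 89753446, plus strand), was at 149, 131 and 113 CPM with IFNγ plus FK866, at 146, 148 and 110.2 CPM with IFNγ, and at 42.1, 55.8 and 46.0 CPM in Media. The stimulated groups lay above Media without overlap. Adar rose over Media by a log2 fold change of 1.45 with IFNγ plus FK866 (SE 0.16, adjusted p = 6.20e-04) and of 1.49 with IFNγ (SE 0.16, adjusted p = 5.31e-04). Counts are per gene, so the long interferon-inducible and the short constitutive forms of ADAR1 were not separated. The strand setting of the counting is not given in the sources used here, and 16.8% of the exon bases of Adar are overlapped on the opposite strand by Chrnb2, which had 232, 225 and 275 counts in the IFNγ plus FK866, IFNγ and Media groups, against 6924, 6509 and 2458 for Adar. For Tlr3, Eif2ak2 and Dhx58 the overlapped share is 7.32%, 4.32% and 4.31%.

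Samhd1, which encodes the deoxynucleotide triphosphohydrolase (ENSMUSG00000027639, chromosome 2, 157097533 to 157135265, minus strand), was at 179.7, 145 and 125 CPM with IFNγ plus FK866, at 191, 138 and 123 CPM with IFNγ, and at 42.2, 38.9 and 48.0 CPM in Media. The stimulated libraries were highest in number 3, while Media was highest in number 5. The log2 fold change over Media was 1.80 with IFNγ plus FK866 (SE 0.19, adjusted p = 4.42e-04) and 1.81 with IFNγ (SE 0.19, adjusted p = 4.38e-04). Without the libraries of number 4 the log2 fold changes were 1.77 and 1.80 and the calls were lost (adjusted p = 0.0665 and 0.0613).

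**Figure D2:**
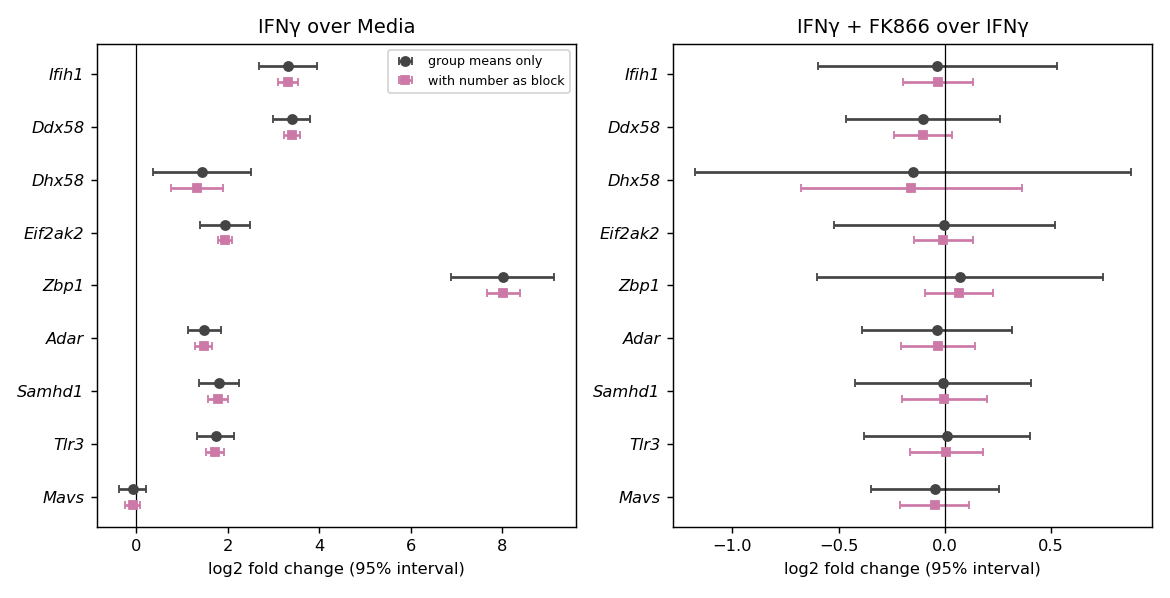
Log2 fold change of each member with its 95% interval from edgeR, for IFNγ over Media (left panel) and IFNγ + FK866 over IFNγ (right panel, on a narrower axis); circles are the fit of group means and squares the fit with the library number as a block. In the left panel the estimates lie at 1.33 or more for every member but Mavs, and in the right panel between -0.16 and 0.07, with all intervals spanning 0.

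Setting IFNγ plus FK866 against IFNγ compares cells with and without FK866 in the presence of IFNγ. Without a group given FK866 alone, an altered response to IFNγ and an effect of FK866 by itself cannot be told apart. The counts hold no measure of NAD or of NAMPT activity. None of the 9 members was called and the libraries of the groups overlapped for all 9. Over all genes edgeR called 0% higher and 0% lower, with 88 genes at an unadjusted p below 0.05, and DESeq2 likewise called no member. That fit leaves out the pairing of libraries by number. The median standard error over all genes was 0.212 in it and 0.106 with the block, so its lack of calls is weak evidence of no change. With the library number as a block no member was called either, where 0.0131% of all genes were higher and 0.00656% lower. With the block 573 genes had an unadjusted p below 0.05, none of them a member. Without overlap between the groups, 1.94% of all genes were higher and 1.39% lower. Log2 fold changes of the members ran from -0.15 for Dhx58 to 0.07 for Zbp1, each smaller than its standard error, in the fit without the block. Its 95% intervals were -0.60 to 0.53 for Ifih1, -0.46 to 0.26 for Ddx58, -1.18 to 0.87 for Dhx58 and -0.60 to 0.74 for Zbp1, and for the other members their bounds lay within those of Zbp1. The fit with the block gave narrower 95% intervals of the log2 fold change, -0.20 to 0.13 for Ifih1, -0.24 to 0.03 for Ddx58 and -0.09 to 0.23 for Zbp1. It was -0.14 to 0.13 for Eif2ak2, -0.21 to 0.14 for Adar, -0.20 to 0.20 for Samhd1, -0.17 to 0.18 for Tlr3 and -0.21 to 0.11 for Mavs. Dhx58, the member with the fewest counts, had the widest interval in both fits, -0.68 to 0.36 with the block. Nampt itself was at 522 ± 79.9 CPM with IFNγ plus FK866, 538 ± 47.1 CPM with IFNγ and 192 ± 33.4 CPM in Media (SD, n = 3 each).

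Levels of different genes were compared as CPM per kilobase of exon. Eif2ak2 was the most abundant member in both stimulated groups, at 35.0 ± 8.48 with IFNγ plus FK866 and 35.1 ± 8.03 with IFNγ (SD, n = 3 each), with no overlap with the next gene. Samhd1, Adar and Zbp1 followed at 16.4, 16.2 and 14.2 with IFNγ plus FK866 and at 16.5, 16.6 and 13.6 with IFNγ, then Ddx58, Tlr3 and Mavs between 10.2 and 11.6, and neighbours in this stretch overlapped. Ifih1 came next, at 6.70 and 6.88, and Dhx58 last, at 2.25 and 2.51, each below its neighbour without overlap. In Media the order differed: Mavs, at 11.1 ± 1.43, and Eif2ak2, at 9.12 ± 2.04, overlapped at the top, Adar (5.90) and Samhd1 (4.70) overlapped below them, Tlr3 stood alone at 3.21, Ddx58, Dhx58 and Ifih1 overlapped in turn between 1.09 and 0.685, and Zbp1 was last at 0.0513. Zbp1 thus took the lowest place in Media and the fourth in both stimulated groups.

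All 9 members differed between numbers 3, 4 and 5 in the fit with the number as a block, where 51.8% of all genes did. The edgeR F test of the number over the 3 groups together gave adjusted p from 1.49e-07 for Zbp1 to 0.0127 for Adar. Each group has 1 library per number, so differences inside a single group were not tested. In both stimulated groups number 5 was the lowest library for 8 of the 9 members, and number 4 for Mavs. In Media the lowest library was number 3 for 3 members, number 4 for 4 and number 5 for 2. The share of all genes with their lowest library in each number was not computed, so these counts do not show a pattern particular to the members. Taken over the 3 groups together, the log2 difference of number 5 from number 4 was -1.03 for Dhx58, -0.96 for Zbp1, -0.71 for Ifih1 and -0.43 for Tlr3. It was -0.41 for Eif2ak2, -0.40 for Ddx58, -0.31 for Adar and -0.04 for Samhd1, and it was 0.22 for Mavs. In Media alone number 5 lay above number 4 for Dhx58 (3.34 against 2.79 CPM) and Samhd1 (48.0 against 38.9 CPM). Zbp1 did so too, on 2 counts in each library. For these members number 5 lay below number 4 in both stimulated groups. Irf1 was at 719, 796 and 725 CPM with IFNγ plus FK866, at 762, 826 and 773 CPM with IFNγ and at 20.6, 17.3 and 14.0 CPM in Media in numbers 3, 4 and 5, so that number 3 was its lowest library in both stimulated groups and number 5 in Media. With DESeq2 the difference was not called for Dhx58 (adjusted p = 0.252) or Samhd1 (0.261). It also lost its call for Dhx58 without the IFNγ (0.145) or the IFNγ plus FK866 library of number 5 (0.133), for Adar without the same libraries (0.186 and 0.0817), for Samhd1 without the IFNγ library of number 3 (0.194), and for Mavs without the Media (0.0911) or the IFNγ plus FK866 library of number 4 (0.0750).

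**Figure D3:**
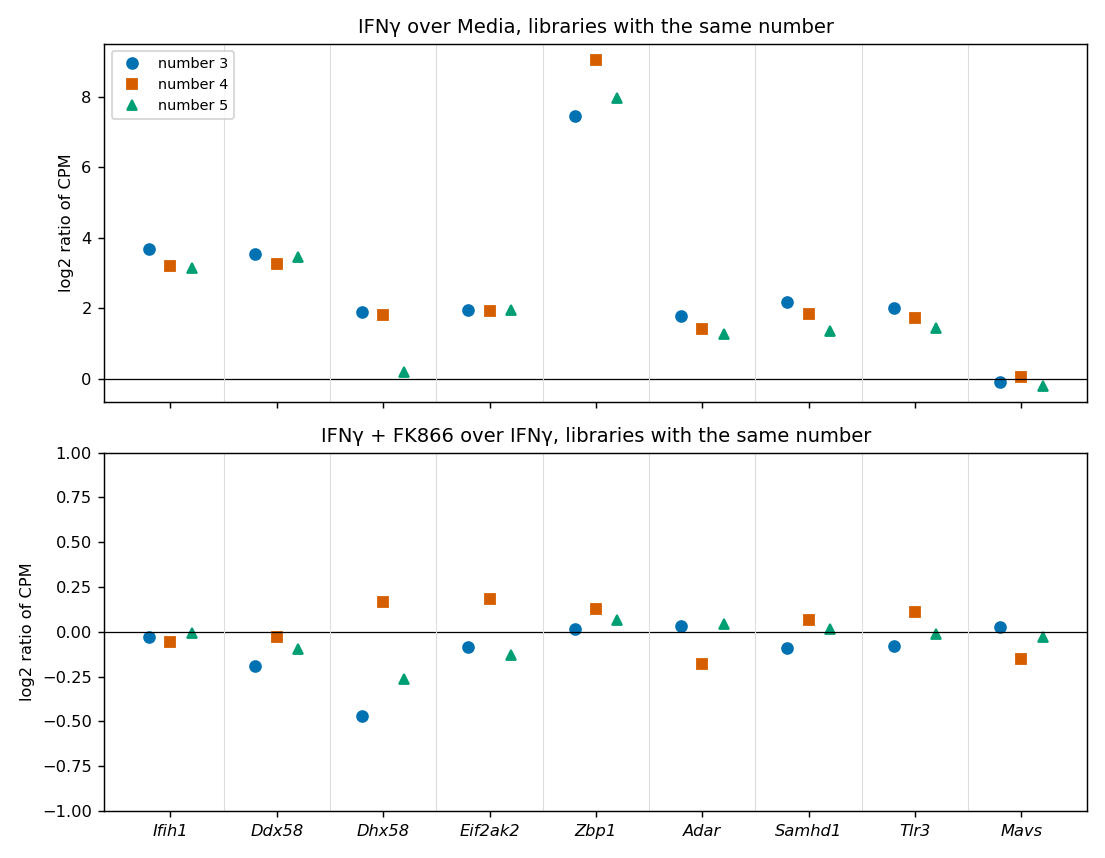
Log2 ratio of CPM between libraries of the same number for each member, for IFNγ over Media (upper panel) and IFNγ + FK866 over IFNγ (lower panel, on a narrower axis), with a symbol for each of the numbers 3, 4 and 5. In the upper panel Dhx58 lies at 1.91, 1.80 and 0.20 and Samhd1 at 2.18, 1.83 and 1.36, and in the lower panel all points lie between -0.47 and 0.18.

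The ratio to Media was also compared between numbers, with the IFNγ plus FK866 and IFNγ libraries of a number as replicates, against 1 Media library per number, a test added after the data had been seen. The 2 stimulated libraries of a number had different treatments and the spread of Media within a number was not measured, so its p-values describe these libraries and do not show that the response differs. Samhd1 had log2 ratios to Media of 2.14, 1.87 and 1.37 in numbers 3, 4 and 5 (adjusted p = 0.00331), and Dhx58 showed 1.68, 1.89 and 0.08 (adjusted p = 0.0480), where 0.597% of all genes were called. No other member was called, Adar being nearest with 1.81, 1.32 and 1.28 (adjusted p = 0.0682). Samhd1 was called without any 1 of the 6 stimulated libraries (adjusted p from 0.00126 to 0.0168). The Dhx58 call was lost without the IFNγ library of number 3 (0.0832) or 4 (0.0598), without the IFNγ plus FK866 library of number 4 (0.114) or 5 (0.0937), and with DESeq2 (0.227). Adar passed without the IFNγ library of number 4 (0.0336) or 5 (0.0378) or the IFNγ plus FK866 library of number 5 (0.0468). The Media library of a number has no replicate, so the number and that library cannot be told apart.

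The rest of the pathway was read from 86 listed genes, of which 74 were tested. With IFNγ plus FK866 13 were called higher than Media and 0 lower, and with IFNγ 12 higher and 0 lower, where 2.76% and 2.8% of all genes were called higher and 0.597% and 0.499% lower. With the block these counts became 19 higher and 3 lower for IFNγ plus FK866, where 8.53% of all genes were higher and 7.61% lower, and 21 higher and 2 lower for IFNγ, where 8.12% were higher and 6.14% lower. Without the libraries of number 4, 4 genes were called higher in each comparison. Among adaptors and kinases 5 of 21 tested rose in both comparisons: Mlkl, the executioner of necroptosis, Tmem173, which encodes STING, Ripk1, a kinase of cell death and NF-κB signalling, Myd88, the adaptor of most Toll-like receptors, and Azi2, an adaptor of TBK1. Mlkl averaged 123 ± 9.18 CPM with IFNγ plus FK866, 123 ± 2.56 CPM with IFNγ and 42.6 ± 1.65 CPM in Media (SD, n = 3 each), a log2 fold change over Media of 1.53 in both (SE 0.09, adjusted p = 7.47e-06 and 7.62e-06). Tmem173 was at 50.0 ± 1.95, 52.9 ± 2.62 and 19.1 ± 0.852 CPM in the same groups and Ripk1 at 118 ± 6.13, 122 ± 5.42 and 50.8 ± 1.13 CPM. Ticam1, the adaptor of TLR3, did not pass, at 26.8 ± 6.41 CPM with IFNγ plus FK866, 26.3 ± 2.97 with IFNγ and 25.9 ± 1.99 in Media. Ripk3, the kinase between ZBP1 and MLKL, had 0 counts in both stimulated groups and 1 count in Media.

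Of 5 transcription factors 1 rose, Irf7, which amplifies type I interferon, by 4.81 on the log2 scale with IFNγ plus FK866 (SE 0.87, adjusted p = 0.0137) and by 4.86 with IFNγ (SE 0.87, adjusted p = 0.0135). Irf7 averaged 7.27 ± 6.32 CPM with IFNγ plus FK866, 7.55 ± 5.76 CPM with IFNγ and 0.248 ± 0.167 CPM in Media. Its Media level rests on 13 counts, and its stimulated libraries varied widely. Irf3, the factor activated directly below MAVS, was at 26.9 ± 4.67, 28.1 ± 4.45 and 24.5 ± 6.31 CPM with IFNγ plus FK866, with IFNγ and in Media. Regulators of the helicases and of MAVS gave 5 rises of 18 with IFNγ plus FK866 and 4 with IFNγ. The 4 that passed in both were Ddx60, a helicase linked to RIG-I signalling, Rnf135 and Trim25, ubiquitin ligases of RIG-I, and Cyld, a deubiquitinase. The fifth with IFNγ plus FK866 was Zc3hav1, an antiviral zinc finger protein (0.71, SE 0.16, adjusted p = 0.0416). With IFNγ it was close to the threshold (0.66, SE 0.16, adjusted p = 0.0569), and between the stimulated groups its log2 fold change was 0.04. Ddx60 averaged 10.2 ± 4.63 CPM with IFNγ plus FK866, 7.44 ± 4.11 CPM with IFNγ and 0.271 ± 0.207 CPM in Media, a log2 fold change over Media of 5.18 (SE 0.70, adjusted p = 0.00233) and 4.73 (SE 0.70, adjusted p = 0.00407). Trim25 averaged 99.1 ± 47.3, 104 ± 52.7 and 15.1 ± 6.92 CPM in the same groups.

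Of 18 tested genes of double-stranded RNA binding and the PKR pathway none passed in either comparison with Media, which in a list of this size is near the share of all genes called higher (2.76% and 2.8%). With the block 1 passed in each, Dnajc3 with IFNγ plus FK866 (lower, -0.20) and Ppp1r15b with IFNγ (higher, 0.20). Among all genes the block gave 7.61% lower with IFNγ plus FK866 and 8.12% higher with IFNγ. A count of 1 in 18 is near these shares. Adarb1, the relative of Adar, was at 6.18 ± 1.22 CPM with IFNγ plus FK866, 5.38 ± 1.51 CPM with IFNγ and 6.35 ± 1.32 CPM in Media. The other eIF2α kinases, Eif2ak1, Eif2ak3 and Eif2ak4, did not pass either, while Eif2ak2 did. Of 12 clearing enzymes 2 rose in both comparisons, among them the decapping enzyme Dcp2, by 0.85 with IFNγ plus FK866 (SE 0.10, adjusted p = 0.00106) and 0.88 with IFNγ (SE 0.10, adjusted p = 7.96e-04). Trex1, a DNA exonuclease, had 0 counts in all libraries, but 100% of its exon bases lie within exons of Atrip on the same strand, so its level is not known from these counts.

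**Figure D4:**
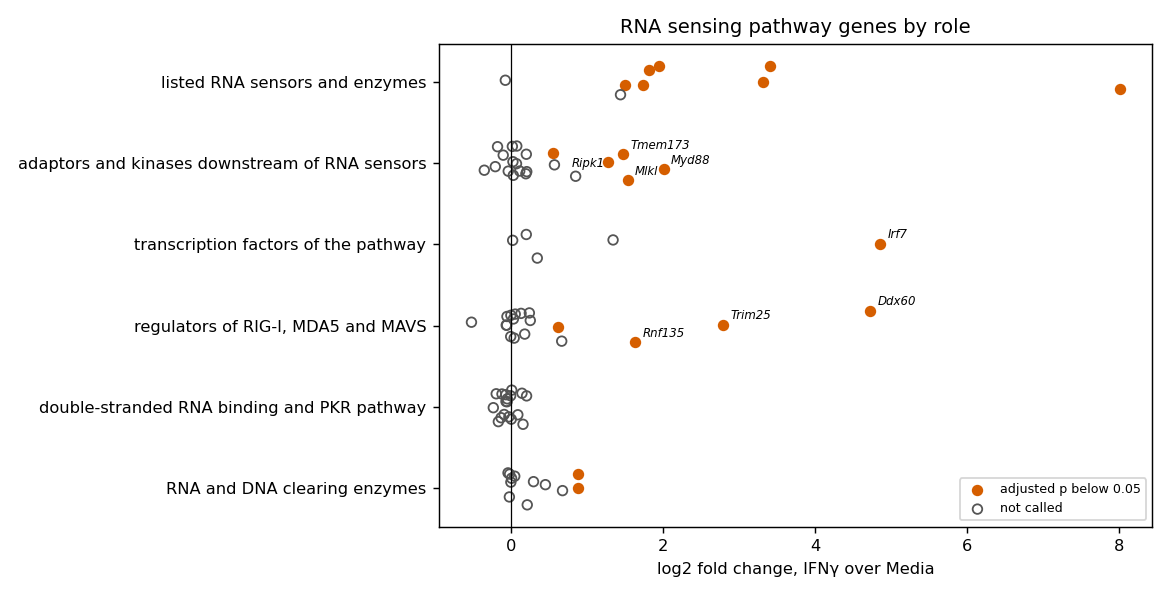
Log2 fold change of IFNγ over Media (horizontal axis) for the 9 members, in the top row, and for the 74 tested genes of the pathway lists, in a row per list; filled circles are called at an adjusted p under 0.05, open circles are not, the vertical scatter within a row carries no value, and the called list genes farthest from 0 are named. Of the 74 list genes 12 are called, all above 0.

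Among the listed interferon ligands made below these sensors, Ifnb1, Ifnk, Ifnl2 and Ifnl3 had 0 counts in all 9 libraries, which allows up to 0.196 CPM in the smallest library at a floor of 3 counts. Ifna4 had 1 count with IFNγ plus FK866 and 0 in the other groups. These 5 listed ligand genes were therefore at or next to 0 at this depth at 6 h, in the libraries where sensor genes were high. Other interferon genes were not examined. Between IFNγ plus FK866 and IFNγ none of the 74 genes was called, and the 6 with the smallest p included Traf3 (-0.16), Irf5 (-0.65), Skiv2l (-0.18), Otud5 (-0.09) and Stau1 (-0.10), with log2 fold changes in brackets and adjusted p = 0.9999 for each.

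For each member the gene with the most similar pattern over the 9 libraries was found among 9713 candidate genes. These had a mean CPM of at least 5, and members, genes without a symbol, predicted or clone-named genes and pseudogenes were left out. Similarity was the smallest root mean square difference of centred log2 values of CPM plus 0.1. Mavs was closest to Zfand3, at 0.057 on the log2 scale, Tlr3 to Mitd1 (0.0888), Adar to Rmdn3 (0.113), Eif2ak2 to Csrnp1 (0.131) and Samhd1 to Tor3a (0.162). Ddx58 was closest to Parp10 (0.215), Ifih1 to Parp12 (0.261) and Dhx58 to B2m (0.303). Zbp1 had the least close match, Clec2d at 0.536, which was listed at 0 in Media and averaged 19.7 CPM with IFNγ.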

How the data were processed

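RNA was sequenced from 9 B16F10 libraries, 3 per group (polyA RNA, per the labels). The authors deposited raw counts per Ensembl gene, whole numbers that sum to unequal totals. The table holds no values per cell, whereas the 10x platform is named in the series text, so it was treated as bulk. STAR 2.7.6a, cutadapt 1.16, featureCounts 1.6.3, DESeq2 1.30.1 and the builds GRCm38 and mm10 are named in the submitters' processing notes, without roles. The strand setting is not given in the sources used here. Of 55487 genes, 55141 had a symbol, 55227 were in GENCODE M21, and 28707 had 0 counts everywhere. A single fit of all 9 libraries used edgeR 4.0.16 in R 4.3.3, with filterByExpr, TMM factors and the quasi-likelihood test, and p-values were adjusted by Benjamini-Hochberg over 15237 genes (99.9% of counts). Each standard error came from the F statistic of its contrast. Fits with and without the library number as a block were run on simulated data, with an outcome that is not given here. The only condition set for passing was on the fit with the block. CPM values carry the TMM factors, and counting intervals cover counting error only.

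The library numbers pair the libraries: from the titles and the data, the correlation of library deviations within groups ran from 0.625 to 0.783 in the 9 same-number pairs, and from -0.533 to -0.156 in the 18 others. Deviations were taken from group means, so positive values in same-number pairs force the others towards negative values. The negative range is therefore no separate support for the pairing. Members, lists and tests were chosen with earlier results of these data known. Pathway genes named are the 6 of smallest p per comparison, apart from an item that is not reported here. Others named, including Azi2, Irf7, Rnf135, Trim25, Cyld, Ticam1, Irf3, Adarb1, Ripk3, Trex1, Zc3hav1, Dnajc3 and Ppp1r15b, were picked after their values were seen. Alternatives were DESeq2 1.42.0, its size factors, no low-count filter, the replicate block, only the 2 groups compared, and leaving out each library or number.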

Additional observations from a re-analysis of the deposited data

Results flagged for a closer look

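For Samhd1 and Dhx58 the ratio of the stimulated libraries to Media varied with the library number, in a test of that difference with the IFNγ plus FK866 and IFNγ libraries of a number as replicates. The log2 ratio of Samhd1 was 2.14, 1.87 and 1.37 in numbers 3, 4 and 5 (adjusted p = 0.00331 with edgeR). That of Dhx58 was 1.68, 1.89 and 0.08 (adjusted p = 0.0480 with edgeR), and this call was lost with DESeq2 (0.227) and without 1 of 4 libraries in turn, the IFNγ libraries of numbers 3 and 4 and the IFNγ plus FK866 libraries of numbers 4 and 5 (0.0598 to 0.114). The test was added after the data had been seen. Each number has 1 Media library, whose spread was not measured, so a difference in response and a single deviating Media library cannot be told apart.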

How the results depend on the processing

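The 7 member calls against Media kept their direction in every alternative run. With the replicate block, all-gene calls against Media became 1299 higher and 1160 lower for IFNγ plus FK866 and 1237 higher and 936 lower for IFNγ, and 2 higher and 1 lower for IFNγ plus FK866 against IFNγ; pathway calls against Media became 19 higher and 3 lower for IFNγ plus FK866, and 21 and 2 for IFNγ. The block changed no call of a member against Media or IFNγ other than Dhx58. DESeq2 also called Dhx58 for IFNγ against Media (adjusted p = 0.0463). With DESeq2 169 genes were lower for IFNγ plus FK866 and 157 for IFNγ against Media, 1 pathway gene was lower for IFNγ plus FK866 (also without the filter on low counts), and 1 member was called for a ratio to Media that varied with the number. With only the 2 groups compared, 59 genes were lower for IFNγ plus FK866. The cause of these shifts was not tested. Leaving out libraries gave 147 to 406 higher and 4 to 75 lower genes for IFNγ plus FK866 against Media, and 148 to 420 higher and 6 to 68 lower for IFNγ. Members called higher ran from 5 to 8 in both, pathway genes called higher from 4 to 14 in both, and lower from 0 to 1 for IFNγ plus FK866. Pathway and check genes were added to these alternatives after the data had been seen; Irf7, Ddx60, Trim25, Rnf135, Myd88, Dcp2, Azi2, Cyld and Zc3hav1 lost their call in at least 1 of them, while Mlkl, Tmem173 and Ripk1 kept theirs.

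Between IFNγ plus FK866 and IFNγ, no member was called in any alternative, and leaving out libraries moved the log2 fold change across 0 for all 9 members. It ran from -0.21 to 0.15 for Ifih1, -0.21 to 0.00011 for Ddx58, -0.55 to 0.20 for Dhx58, -0.15 to 0.19 for Eif2ak2, -0.18 to 0.32 for Zbp1, -0.17 to 0.0565 for Adar, -0.16 to 0.20 for Samhd1, -0.13 to 0.15 for Tlr3, -0.13 to 0.0442 for Mavs and -0.18 to 0.0324 for Nampt. With size factors of the DESeq2 kind it was 0.00023 for Eif2ak2. Members called for a ratio that varied with the number ran from 1 to 3 when libraries were left out. Depth limits Zbp1 (9 counts), Irf7 (13 counts) and Ddx60 (14 counts) in Media, and also Dhx58, Ripk3 and the interferon ligands.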
